A study of Mus musculus with 6 samples.

Results

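The genes described here are 9 markers of macrophages that are recruited to the liver or that take up lipid: Trem2, Gpnmb, Itgax, Cd68, Lyz2, Mpeg1, Csf1r, Ccr2 and Cx3cr1. They were taken as every probe set with exactly 1 of these gene symbols, which gave 14 probe sets for 9 of 17097 genes on the array, and each gene was represented by its brightest probe set. Wild-type mice and mice with a knockout of Nrg4, the gene of the secreted ErbB ligand neuregulin 4, were compared in whole liver. The strain is given as C57BL/6, and both genotypes were given the same high-fat diet at 3 months of age, ate it for 8 weeks and were harvested in the fed state, so neither genotype has a chow-fed control here. Each genotype has 3 arrays, and each array carries an independent RNA pool of an unstated number of mice. Whether the knockout acts in every cell, and the sex of the mice, were not stated in the sources used here.

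Macrophages of the liver come from resident Kupffer cells and from blood monocytes that enter the tissue. Monocytes follow chemokines through CCR2 and CX3CR1, and they depend on colony stimulating factor signals through CSF1R. In fatty liver and adipose tissue, macrophages that clear lipid are known for TREM2, a lipid-sensing receptor, and for GPNMB and the integrin CD11c, which Itgax encodes. Cd68, Lyz2, Mpeg1 and Csf1r are carried by macrophages in general, Kupffer cells included, so they do not by themselves tell recruited from resident cells. In bulk liver RNA, a change in the number of such cells and a change in RNA per cell cannot be told apart.

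The values are log2 RMA signals, in which 1 unit is a doubling of signal. Array medians lay between 2.98 and 3.04, and correlations between whole arrays between 0.991 and 0.996. Nrg4 itself was 4.94, 4.79 and 4.77 in wild type and 2.56, 2.43 and 2.64 in the knockout (limma adjusted p = 4.75e-05), lower in the arrays labelled as knockout. Among the 10 hepatocyte markers, 9 were above the limit for dim genes, and Pck1 was under it in both genotypes, at 1.83 and 1.80. The arrays of the genotypes stood apart in every control probe set of 18S ribosomal RNA. The 5' set was at 8.12 to 8.80 in wild type and 5.61 to 6.71 in the knockout. The middle set was at 7.92 to 8.14 and 5.74 to 6.59, and the 3' set at 7.45 to 7.73 and 6.67 to 6.89. Knockout replicate 1 stood apart in the signal of the 5' less that of the 3' control probe sets, averaged over Actb and Gapdh, at -1.31, against -0.95, -0.78 and -0.96 in wild type and -0.70 and -0.65 in the other knockout arrays. The part of either in the results below was not tested.

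The markers with the highest knockout values relative to wild type were genes of general macrophage identity. Cd68, Mpeg1 and Lyz2 were 1.40-fold, 1.37-fold and 1.36-fold higher as measured, with Ccr2 and Csf1r at 1.17-fold and 1.15-fold. Itgax, Gpnmb and the main probe set of Trem2 differed by 0.05, 0.01 and -0.10 on the log2 scale, and Cx3cr1 lay near background. No marker passed limma's test at an adjusted p under 0.05 over all 12475 genes tested, where 5 genes or 0.0401% passed. The lowest adjusted p among the markers was 0.444, for Mpeg1. At an unadjusted limma p under 0.05, 3 of the 8 markers tested were higher (Mpeg1, Lyz2 and Ccr2) and 0 lower, against 7.37% of all genes tested higher and 2.18% lower.

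**Figure D1:**
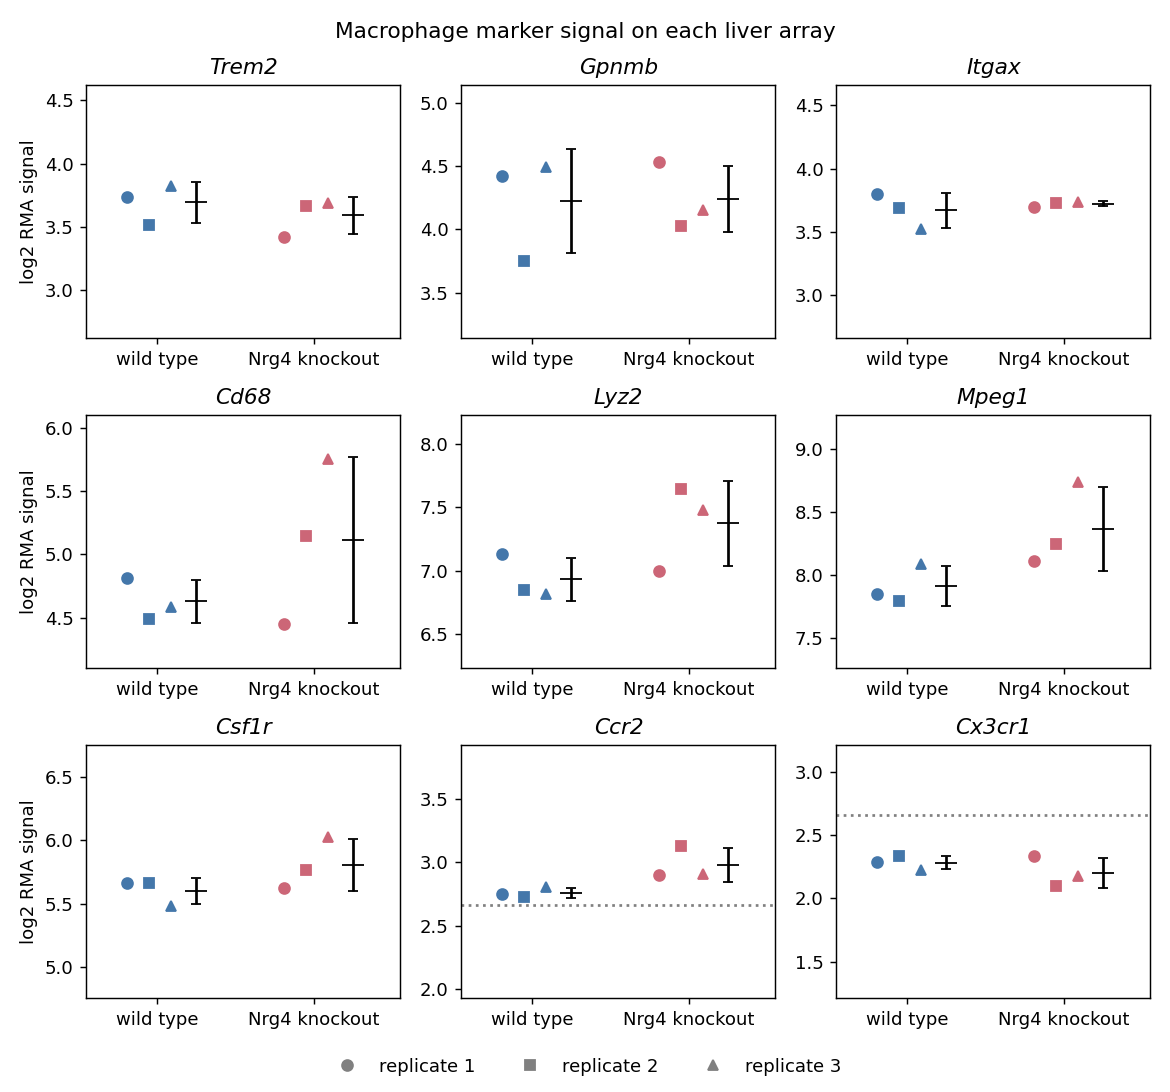
Log2 RMA signal of the brightest probe set of each of the 9 markers on the 3 wild-type (blue) and 3 knockout (red) arrays, marker shape giving the replicate number, with the mean and SD of each genotype in black; every panel spans 2 log2 units, and the dotted line is the limit for dim genes at 2.66. Knockout replicates 2 and 3 lie above all wild-type arrays for Cd68, Lyz2, Mpeg1, Csf1r and Ccr2, while Trem2, Gpnmb and Itgax overlap.

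The lipid-associated markers come first. Trem2 read 3.74, 3.52 and 3.83 in wild type and 3.42, 3.67 and 3.69 in the knockout. The genotypes overlapped, with the lowest value in knockout replicate 1 and the highest in wild-type replicate 3. The difference was -0.10 (SE 0.12, 3 arrays against 3, limma adjusted p = 0.815), with a 95% interval of -0.37 to 0.16.

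A second probe set of Trem2 went the other way. It read 3.03, 3.23 and 3.24 in wild type and 3.23, 3.36 and 3.93 in the knockout, a difference of 0.34 (SE 0.17, limma adjusted p = 0.569 over all probe sets). Its high mean in the knockout came from replicate 3, and the genotypes overlapped, since wild-type replicate 3 lay above knockout replicate 1. In Affymetrix naming this second probe set carries a suffix for probes shared by several transcripts, and which of the probe sets reads Trem2 better was not tested. Taken as the mean of its probe sets, Trem2 stood at 0.12 (SE 0.12, limma adjusted p = 0.801). A direction for Trem2 is thus not settled by these arrays.

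Gpnmb, a transmembrane glycoprotein of lysosome-rich macrophages, read 4.43, 3.75 and 4.50 in wild type and 4.53, 4.03 and 4.16 in the knockout. The lowest array was wild-type replicate 2 and the highest knockout replicate 1, so the spread lay within the genotypes. The difference was 0.01 (SE 0.21, limma adjusted p = 0.988), and its 95% interval of -0.46 to 0.48 is wide. Gpnmb had a within-genotype SD of 0.41 in wild type, the widest of the 9 markers in that genotype.

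Itgax, the integrin subunit CD11c that dendritic cells also carry, read 3.80, 3.69 and 3.52 in wild type and 3.70, 3.73 and 3.74 in the knockout. The knockout values lay inside the wild-type range. The difference was 0.05 (SE 0.09, limma adjusted p = 0.896), with a 95% interval of -0.17 to 0.27. Of the 5 dendritic cell markers tested, 1 had a higher and 4 a lower value, with a median log2 change of -0.14 (-0.21 without wild-type replicate 3 and -0.08 without knockout replicate 3). With all arrays this median is the change of Zbtb46. Its means, 2.83 in wild type and 2.70 in the knockout, lay under the control value for nonspecific signal given below. The smallest p-values were those of Cd209a at -0.22 (limma adjusted p = 0.506) and Flt3 at 0.25 (limma adjusted p = 0.586). At an unadjusted limma p under 0.05, 1 was lower, Cd209a, without overlap, and 0 higher. Over all genes tested, 2.18% were lower at that p.

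The phagocyte genes showed the highest values in the knockout. Cd68, a glycoprotein of the lysosomal membrane, read 4.81, 4.49 and 4.58 in wild type and 4.45, 5.15 and 5.76 in the knockout. Knockout replicates 2 and 3 stood above all wild-type arrays and knockout replicate 1 below all of them. The difference of 0.49 (SE 0.28, limma adjusted p = 0.603) had a 95% interval of -0.15 to 1.12. It was 0.82 without knockout replicate 1 (limma adjusted p = 0.136) and 0.17 without knockout replicate 3 (limma adjusted p = 0.967).

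Lyz2, the lysozyme of myeloid cells, read 7.13, 6.85 and 6.82 in wild type and 7.00, 7.64 and 7.48 in the knockout. Knockout replicate 1 lay inside the wild-type range and the other knockout arrays above it. The difference was 0.44 (SE 0.17, 95% interval 0.06 to 0.83, limma adjusted p = 0.46). The probe set has an Affymetrix suffix for probes that can match other genes, and the near-identical paralog Lyz1, read by a probe set of its own, was at 1.82 to 2.10 in wild type and 1.88 to 2.15 in the knockout, under the limit for dim genes. Signal of the paralogs could still be shared, so the Lyz2 value is uncertain in that respect.

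Mpeg1, which encodes the pore-forming protein perforin-2, read 7.85, 7.80 and 8.09 in wild type and 8.11, 8.24 and 8.74 in the knockout. The genotypes did not overlap, though knockout replicate 1 exceeded wild-type replicate 3 by a small margin. The difference was 0.45 (SE 0.16, 95% interval 0.08 to 0.82, limma adjusted p = 0.444). Without knockout replicate 3 it was 0.26 (limma adjusted p = 0.876).

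Csf1r, the receptor of the macrophage growth factors CSF1 and IL-34, read 5.66, 5.66 and 5.48 in wild type and 5.62, 5.77 and 6.03 in the knockout. Knockout replicate 1 was again inside the wild-type range. The difference was 0.20 (SE 0.12, 95% interval -0.07 to 0.47, limma adjusted p = 0.611), and without knockout replicate 3 it was 0.09.

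The chemokine receptors were dim. Ccr2, which brings monocytes to sites of CCL2 release, read 2.75, 2.73 and 2.80 in wild type and 2.90, 3.13 and 2.91 in the knockout. The genotypes did not overlap, and the difference was 0.22 (SE 0.09, 95% interval 0.01 to 0.44, limma adjusted p = 0.517), or 0.15 without knockout replicate 2. The wild-type mean of 2.76 lay just over the limit for dim genes of 2.66 and under 2.91, the highest array value of the 95th percentile of the 23 control probe sets for nonspecific signal. The knockout mean of 2.98 lay just over that value, so the difference was measured at the edge of background.

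Ccr2 has 4 probe sets, of which 2 were above the limit for dim genes. The second of these read 2.56, 2.81 and 2.67 in wild type and 2.95, 2.86 and 3.13 in the knockout. Again without overlap, the difference was 0.30 (SE 0.11, limma adjusted p = 0.433 over all probe sets). The dim probe sets differed by 0.27, with knockout replicate 1 at 3.07 and the other arrays at 2.26 to 2.55, and by 0.02.

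Cx3cr1, the receptor of fractalkine, lay under the limit for dim genes and under the control value in both genotypes. It read 2.29, 2.33 and 2.23 in wild type and 2.33, 2.09 and 2.17 in the knockout, and was not tested. Its second probe set read 2.01 to 2.12 and 2.09 to 2.18. Its level in these livers was not distinguishable from nonspecific signal. Both chemokine receptor genes lie on the same chromosome as Nrg4, per RefSeq, and the other markers lie on other chromosomes.

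**Figure D2:**
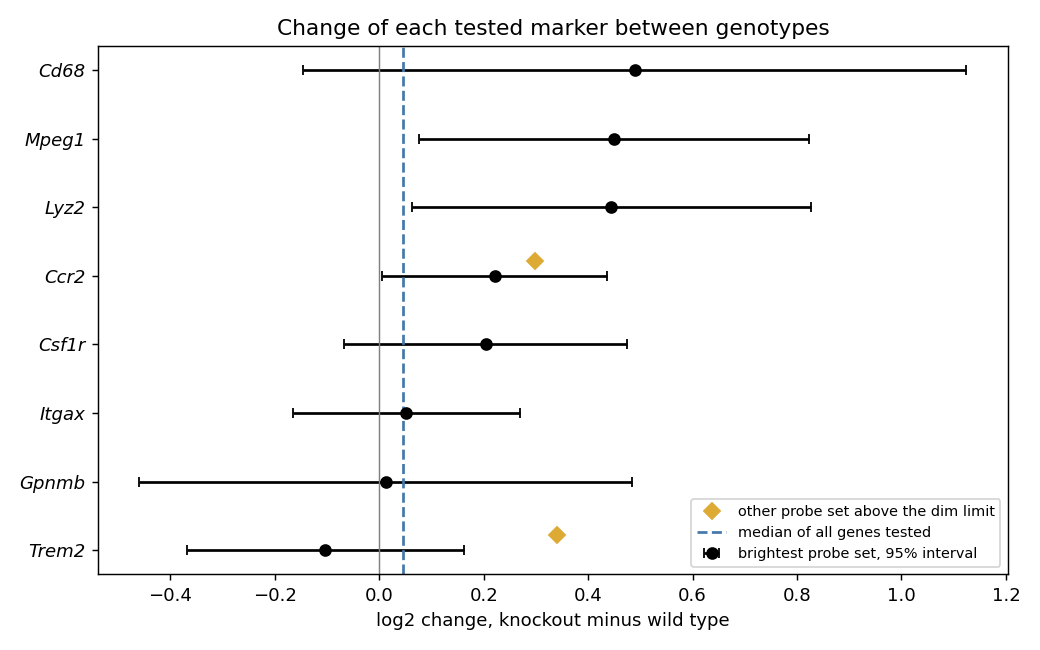
Log2 change (knockout minus wild type) of the 8 markers tested, with the 95% interval of limma (black), the other probe sets above the limit for dim genes (yellow) and the median of all genes tested (dashed, 0.045). The intervals of Mpeg1, Lyz2 and Ccr2 lie above 0 before adjustment, and the probe sets of Trem2 lie on opposite sides of 0.

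Of the 8 markers tested, 7 had a higher value in the knockout, where 63.4% of all genes tested did. The median log2 change was 0.21 beside 0.045 over all genes. The markers and the lists below were chosen with earlier results of these data known, so their counts describe and do not test. After quantile normalization again or centring on array medians, Gpnmb turned below 0 and 6 of 8 were higher. With Cx3cr1 included, 7 of 9 were higher and the median was 0.20. The genotypes did not overlap with the knockout higher in 2 of 8, against 11.7% of all genes tested, and with the knockout lower in 0 of 8, against 3.93%. The changes of Cd68, Mpeg1 and Lyz2 exceeded those of 98.8%, 98.5% and 98.4% of genes tested, while Trem2 exceeded 13.7%.

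The arrays of the knockout were unlike each other in these genes. The mean of the 8 markers tested, each centred on its own mean, was -0.02, -0.23 and -0.09 in wild type and -0.07, 0.13 and 0.27 in the knockout. Knockout replicate 1 thus lay among the wild-type arrays and replicates 2 and 3 above them. In 7 of 8 markers knockout replicate 1 was the lowest of the knockout arrays, against 46.5% of all genes tested, and in 5 of 8 knockout replicates 2 and 3 both stood above every wild-type array, against 26.6%. These patterns were picked after the values were seen. Without knockout replicate 1, 5 of 8 markers were higher at an unadjusted limma p under 0.05, where 12.6% of all genes tested were, and 0 passed adjustment. Without wild-type replicate 2, 0 of 8 were, where 4.44% of all genes were, and without any one of the other arrays 1 was. Without knockout replicate 3 the median change of the 8 markers was 0.13.

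**Figure D3:**
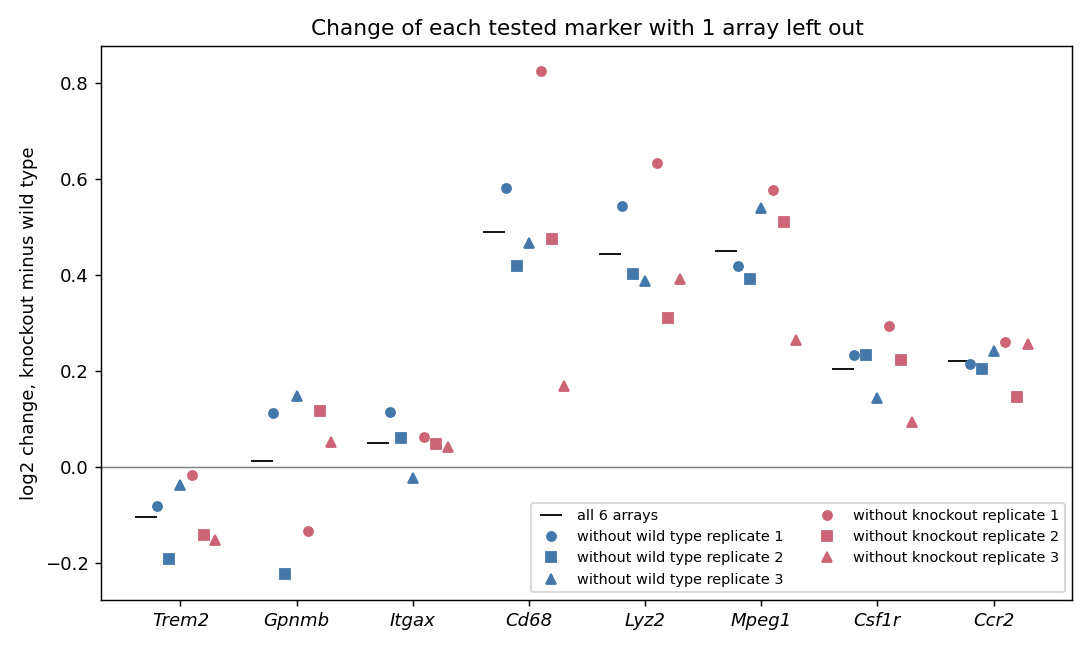
Log2 change (knockout minus wild type) of the 8 markers tested with all 6 arrays (black bar) and with each array left out (blue, a wild-type array; red, a knockout array; shape gives the replicate number). Cd68 spans 0.17 to 0.82 and Lyz2 0.31 to 0.63, while Gpnmb and Itgax lie on both sides of 0.

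Partners of these receptors and related genes were examined as lists. For the TREM2 adaptor and downstream signalling, 8 of 10 genes were tested. The knockout value was higher in 7 of them, and the median change was 0.29. None passed over all genes, and 5 were higher at an unadjusted p under 0.05. These 5 include Clec7a, a receptor of its own, and Fcer1g, an adaptor of Fc receptors, so the count is not one of TREM2 signalling alone. Here and in the lists below, the shares over all genes are 63.4% with a change above 0 and 7.37% higher at an unadjusted p under 0.05. Tyrobp, the adaptor DAP12 through which TREM2 signals, read 6.58, 6.26 and 6.33 in wild type and 6.76, 6.66 and 7.10 in the knockout. For Tyrobp the genotypes did not overlap (0.45, SE 0.14, limma adjusted p = 0.357). Plcg2, a phospholipase downstream of it, stood at 0.27 (limma adjusted p = 0.347) and Clec7a, the beta-glucan receptor dectin-1, at 0.57 (limma adjusted p = 0.386), also without overlap. Syk was under the limit for dim genes and Lyn had no probe set of 1 symbol. Tyrobp serves other myeloid and NK cell receptors too.

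Other genes of lipid-associated macrophages were higher in 10 of the 13 tested, with a median of 0.14, and 3 were higher at an unadjusted p under 0.05. These were Cd36, the fatty acid translocase, at 0.74 (limma adjusted p = 0.0597), Lpl, lipoprotein lipase, at 0.88 (limma adjusted p = 0.157) and Atp6v0d2, a subunit of the vacuolar proton pump, at 0.45 (limma adjusted p = 0.348). Hepatocytes, endothelium and adipocytes can also express Cd36 or Lpl. The 3 lower genes were Nceh1, a cholesteryl ester hydrolase, at -0.34 without overlap (limma adjusted p = 0.532), Fabp5, a fatty acid binding protein, at -0.24 (limma adjusted p = 0.901) and Plin2, a lipid droplet coat protein, at -0.004. Without knockout replicate 1 the median of this list was 0.21. Cd9 stood at 0.09, and Mmp12 was under the limit for dim genes.

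Growth factors and transcription factors of macrophages gave small differences. Of these, 8 of 11 tested were higher, with a median of 0.05 (0.13 without knockout replicate 1), and 1 was higher at an unadjusted p under 0.05. This was Irf8, a factor of monocyte and dendritic cell development, at 0.46 (SE 0.19, limma adjusted p = 0.511). The ligand gene Il34 stood at 0.15 and Csf1 at -0.11. Mitf stood at 0.21 and Spi1, which encodes PU.1, at 0.20. Spi1 means of 2.70 in wild type and 2.89 in the knockout lay under the control value for nonspecific signal. The wild-type mean of Il34 lay under it too. With all arrays the list median is the change of Cebpa. Cebpa and Cebpb had mean signals of 8.23 and 9.68, and which liver cells carried them was not measured.

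Of chemokines and related receptors, 5 of 10 were tested, 2 higher and 3 lower, with a median of -0.17 (-0.06 without knockout replicate 2). Ccl5, a T cell and macrophage attractant, read 4.47, 4.17 and 4.21 in wild type and 4.53, 4.68 and 5.10 in the knockout (0.49, SE 0.15, limma adjusted p = 0.374). Ccl2, the main ligand of CCR2, read 3.19, 3.06 and 3.38 in wild type and 2.97, 2.84 and 3.08 in the knockout. The genotypes overlapped and the difference was -0.24 (SE 0.11, limma adjusted p = 0.532). Ccl8 stood at -0.26 and the fractalkine gene Cx3cl1 at 0.03.

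Markers of other cells also had higher values. All 14 markers of resident Kupffer cells had log2 changes above 0, with a median of 0.33, and 6 were higher at an unadjusted p under 0.05. Among these, Timd4 had a wild-type mean of 2.657, just under the limit for dim genes, and a knockout mean of 3.18. The smallest p-values were those of Adgre1, which encodes F4/80, at 0.64 (limma adjusted p = 0.143), and Folr2 at 0.41 (limma adjusted p = 0.371). The largest changes were those of Hmox1 and Marco, both at 0.90 and with overlap (limma adjusted p = 0.386 and 0.618). Knockout replicate 1 read 4.89 for Hmox1, inside the wild-type range, and 3.79 for Marco, under every wild-type array. Without knockout replicate 1 the median was 0.49 and 1 gene passed, where 17 of all 12475 genes tested did. Without knockout replicate 3, 11 of 14 were higher. The mean log2 signal of this list was 6.12 to 6.35 in wild type and 6.22 to 6.84 in the knockout, and knockout replicate 1 again lay among the wild-type arrays. Which cells carried the signal of the general macrophage genes was not measured in whole liver.

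All 8 pan-leukocyte markers were higher too, with a median of 0.28, and 2 were higher at an unadjusted p under 0.05, Rac2 at 0.46 and the tetraspanin gene Cd53 at 0.52. Their mean signal was 4.77 to 4.92 in wild type and 4.83 to 5.38 in the knockout. The median was 0.49 without knockout replicate 1 and 0.16 without knockout replicate 3, where 6 of 8 were higher. Monocyte markers were split, 4 higher and 4 lower of 8 tested, with a median of 0.01 and means of 5.87 to 6.01 and 5.93 to 6.12. At an unadjusted p under 0.05, 1 was higher, Plac8, without overlap, and 0 lower. The smallest p-values were those of Plac8 at 0.52 (limma adjusted p = 0.415) and Itgal at 0.27 (limma adjusted p = 0.593), while Chil3, F13a1, Itgam and Vcan were under the limit for dim genes. Without 1 array the monocyte median lay on either side of 0, at -0.03 without knockout replicate 3, -0.04 without wild-type replicate 2 and 0.05 without knockout replicate 1.

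Sinusoidal endothelial markers were higher in 9 of 10, with a median of 0.29 and means of 5.11 to 5.46 in wild type and 5.45 to 5.85 in the knockout, and 4 were higher at an unadjusted p under 0.05. Lyve1, a hyaluronan receptor that some macrophages also carry, had the largest change of any list, 1.29 without overlap (limma adjusted p = 0.0742), and Ptprb stood at 0.49 (limma adjusted p = 0.347). The median was 0.18 without wild-type replicate 3, and 1 of these genes passed without knockout replicate 1. Stellate cell markers were higher in 8 of 9, with a median of 0.18 and means of 5.41 to 5.52 and 5.67 to 5.85, and 4 were higher at an unadjusted p under 0.05. Col3a1, a fibrillar collagen gene, stood at 0.80 (limma adjusted p = 0.143) and Vim, the vimentin gene, at 0.47 (limma adjusted p = 0.274), both without overlap, and the median was 0.32 without wild-type replicate 1. The changes of Lyve1 and Col3a1 were larger than that of any of the 9 markers.

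The remaining lists had small medians whose size or sign rested on single arrays. The median was 0.16 over 7 neutrophil markers (4 higher) and turned to -0.09 without knockout replicate 3. It was 0.08 over 7 T and NK cell markers (5 higher), 0.08 over 5 B cell markers (4 higher), 0.04 over 3 cholangiocyte markers (3 higher) and 0.01 over 9 hepatocyte markers (5 higher). These medians lay between -0.00091 and 0.13, -0.0019 and 0.16, -0.0031 and 0.16, and -0.0055 and 0.035 with 1 array left out. The genes with the smallest p were Camp at 0.17 and S100a9 at 0.30 of neutrophils, Gzmb at 0.61 (limma adjusted p = 0.0597) and Cd4 at -0.21 of lymphocytes, Ms4a1 at 0.37 and Cd79a at 0.08 of B cells, Sox9 at 0.35 and Anxa4 at 0.04 of cholangiocytes, and Tat at 0.22 and Fah at 0.13 of hepatocytes. Gzmb had a wild-type mean of 2.51, under the limit for dim genes, and entered the test through its knockout mean of 3.12. Camp, Ms4a1 and Cd79a had wild-type means under the control value for nonspecific signal. At an unadjusted p under 0.05, 1 gene was higher in each of the T and NK cell, B cell and cholangiocyte lists. In the neutrophil and hepatocyte lists 0 were. With all 6 arrays, none of the genes tested in any list passed at an adjusted p under 0.05. The part of these cells in the marker values was not tested.

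**Figure D4:**
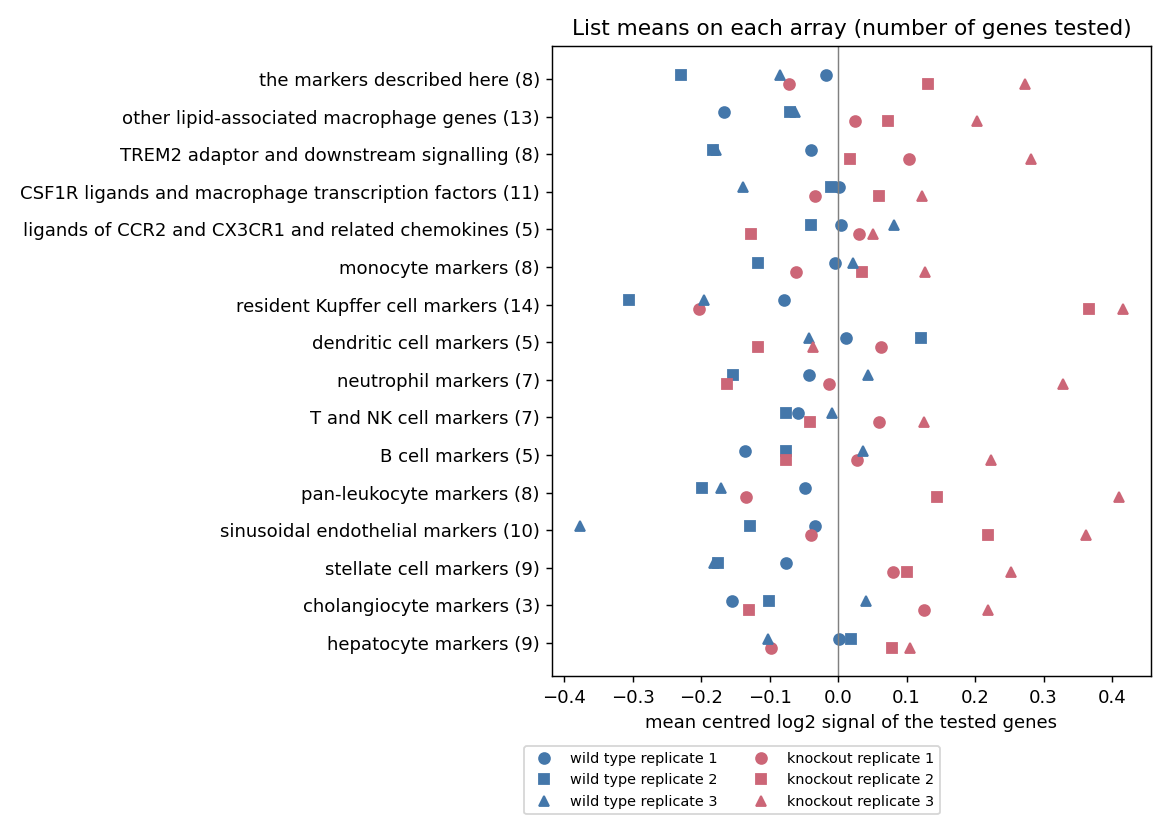
Mean log2 signal of the tested genes of each list on every array, each gene centred on its mean over the 6 arrays; blue is wild type, red the knockout, shape gives the replicate number, and the number of genes tested stands in brackets. For the markers described here, the Kupffer cell and the pan-leukocyte lists, knockout replicates 2 and 3 lie to the right of all wild-type arrays. Knockout replicate 1 lies among the wild-type arrays there. The same holds for the sinusoidal endothelial, monocyte and hepatocyte lists and for the CSF1R ligands and macrophage transcription factors.

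Genes with the most similar pattern over the 6 arrays were found by the root mean square difference of centred log2 values. For Cd68, whose own root mean square deviation was 0.46, these were Slc15a3, a lysosomal peptide transporter, at 0.11, Coro1a, the leukocyte coronin, at 0.11, and Cfp, properdin, at 0.13. For Lyz2, with an own deviation of 0.31, they were Vsig4, a complement receptor of Kupffer cells, at 0.07, Klhl28 at 0.08 and Gas5 at 0.08. For Mpeg1, also at 0.31, they were Rac2, a GTPase of blood cells, at 0.05, Smox at 0.06 and Atp6v1b2 at 0.08. For the markers with a smaller spread, Trem2 was nearest to 1700047M11Rik, Fam220a and Wdr83, Itgax to Gdap1l1, Cmc2 and Gstk1, Csf1r to 5730409E04Rik, Rc3h1 and Fgd1, and Ccr2 to Cttnbp2nl, Tmx4 and Syngr3. Gpnmb was nearest to Plcd4 at 0.06, with B3glct and Cdt1 next. Among the markers themselves, the pair least alike was Gpnmb and Cd68, at 0.58, and the pair most alike Itgax and Csf1r, at 0.14.

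Because Cd68, Lyz2 and Mpeg1 had higher values together, the bases before the start sites were searched for a core of the macrophage factor PU.1, GAGGAA, and for the E-box CACGTG of MITF and TFE factors, on both strands. The 250 bases before each start were searched in the RefSeq windows of 8 of 9 markers. Csf1r was left out of this scan. GAGGAA was in 2 of these 8 windows and in 23.3% of 32851 such windows of all genes, and CACGTG was in 0 of 8 and in 6.02%. Cd68, Mpeg1 and Trem2 are shown, 5' to 3' on the gene's strand in build GRCm38.p6, as a gene with a match and a higher value, one with a higher value and no match, and one with a match whose main probe set was not higher. Capitals mark GAGGAA or its reverse complement TTCCTC.
Cd68, chr11:69666171-69666420, minus strand: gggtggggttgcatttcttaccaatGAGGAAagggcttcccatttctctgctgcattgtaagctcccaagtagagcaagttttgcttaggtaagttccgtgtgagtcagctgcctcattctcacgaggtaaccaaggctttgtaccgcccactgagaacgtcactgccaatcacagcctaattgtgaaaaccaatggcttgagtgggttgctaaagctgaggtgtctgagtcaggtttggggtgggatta
Mpeg1, chr19:12460520-12460769, plus strand: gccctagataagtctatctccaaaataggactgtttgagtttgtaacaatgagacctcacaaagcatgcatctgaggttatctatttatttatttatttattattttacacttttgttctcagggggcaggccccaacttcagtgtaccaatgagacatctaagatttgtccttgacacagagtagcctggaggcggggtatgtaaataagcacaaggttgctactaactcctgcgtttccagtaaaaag
Trem2, chr17:48346151-48346400, plus strand: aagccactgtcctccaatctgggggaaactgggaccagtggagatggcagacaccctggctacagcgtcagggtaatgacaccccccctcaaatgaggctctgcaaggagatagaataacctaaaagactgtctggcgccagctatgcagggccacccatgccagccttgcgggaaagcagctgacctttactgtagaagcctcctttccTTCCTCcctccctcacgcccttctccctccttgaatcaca
The match of Cd68 lay at bases -225 to -220 from the start on the gene's strand and that of Trem2 at -40 to -35 on the opposite strand. A match is a string of letters and was not tested for binding, and the share among these markers is near that of all windows.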

How the data were processed

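Total liver RNA (250 ng per array) was extracted with Trizol, labelled by 3' in vitro transcription and read, per the labels' protocols, on MG-430 PM strip arrays of Affymetrix. The deposited values are log2 signals. Per the submitters' processing notes, affy, RMA and limma were used, with versions and genome build not given in the sources used here. RMA subtracts background and normalizes by quantiles, so a shift of most genes one way would be reduced.

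Of 45141 probe sets, 28898 had 1 gene symbol, 551 several and 15588 none besides 104 controls. The rest entered no gene test. Symbols were updated by gene number through RefSeq (28689 matched). The brightest probe set stood for a gene. A gene was tested where its mean reached the 40th percentile over all probe sets (2.66), as 12475 of 17097 genes did. Genotypes were compared with limma 3.58.1 in R 4.3.3 (lmFit, eBayes, two-sided, Benjamini-Hochberg over all genes tested, threshold 0.05), without a replicate block. Precision is limited by the number of arrays, and p-values describe the spread between pools. On simulated data for 12475 genes, 36.8% of genes changed by 0.5 and 86.2% of those changed by 1 on the log2 scale were found. Of the calls, 4.21% were false. Each draw changed 200 genes and gave every gene independent noise. Deviations shared by the genes of an array were not simulated, so these rates may not hold for the real arrays.

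Genes named are all members, the 3 genes of each pathway list and 2 of each cell marker list with the smallest p, and the 3 nearest patterns of each member tested. Other genes were picked with their values in view. The members and lists were chosen with earlier results of these data known. Alternatives were other normalization, filters, probe set means, priors, array weights, a block and leaving out each array. Protein sequences were not used here. Plots used matplotlib 3.10.9 (Python 3.11.15).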

Additional observations from a re-analysis of the deposited data

How the results depend on the processing

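No marker passed at an adjusted limma p under 0.05 in any of the 15 alternative settings, and the median change of the markers stayed between 0.13 and 0.28. Over all genes, 5 passed, against 8 after quantile normalization again, 3 with the filter at the 60th percentile, 3 with the mean of all probe sets, 29 with a variance trend, 2 with the replicate block and 50 with array weights. The count lay between 1 and 17 with 1 array left out, the highest without knockout replicate 1 and 1 without wild-type replicate 2 or without knockout replicate 3. The cause was not tested. Gpnmb turned to -0.016 after quantile normalization again and to -0.0010 with arrays centred on their medians, and ranged from -0.22 to 0.15 with 1 array left out. Trem2 turned to 0.12 with the mean of all probe sets and to 0.011 with array weights. Itgax ranged from -0.022 to 0.12 with 1 array left out. Cd68, Lyz2, Mpeg1, Csf1r and Ccr2 kept a higher value in the knockout in every setting in which they were tested. Ccr2 was not tested with the filter at the 60th percentile or with the mean of all probe sets.

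Deviations of arrays with the same replicate number correlated at -0.15, 0.03 and -0.01, and 1 of 6 arrays correlated best with its own number. With 3 arrays per genotype, this cannot tell whether arrays of the same number were paired or shared a batch. With the replicate block, 0 markers passed and 2 had an unadjusted p under 0.05, against 3 without it. Signal near background limits what can be said of Ccr2 and Cx3cr1.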

Other observations

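A further probe set is annotated to both Gpnmb and Wdr6 and entered no comparison. It read 4.93, 4.90 and 4.76 in wild type and 4.53, 4.95 and 4.60 in the knockout.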
